A study of Mus musculus with 6 samples.

Results

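The genes of the major histocompatibility complex (MHC) and of antigen presentation were examined in whole uteri of 3 Sox17f/f and 3 Sox17ed/ed mice at gestation day (GD) 3.5. They were taken by symbol, as every gene whose symbol starts with H2-, the mouse MHC, together with B2m, Tap1, Tap2, Tapbp, Cd74, Ciita, Nlrc5, Psmb8, Psmb9 and Psmb10. This gave 60 genes, 50 with an H2- symbol and 10 by name. A probe was matched to 44 of the 60, and 33 of these passed the filter on low signal and were tested, out of 14847 genes tested in all. The other 11 with a probe were H2-DMb2, H2-M1, H2-M10.1, H2-M10.2, H2-M10.3, H2-M10.4, H2-M10.6, H2-M5, H2-M9, H2-Q1 and H2-T3. No probe was matched to H2-Bl, H2-D4, H2-Ea, H2-M10.5, H2-M10.5-ps1, H2-M2, H2-M4-ps, H2-M6-ps, H2-Pa, H2-Pb, H2-Q3, H2-Q5, H2-Q9, H2-T-ps, H2-T18 or H2-T22, and nothing is said of them here.

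Both groups carried the floxed Sox17 allele on both chromosomes. The Sox17f/f controls had no recombinase, whereas Sox17ed/ed mice (Ltf iCre/+ Sox17 f/f) also carried 1 allele of iCre at the Ltf locus, which acts in the uterine epithelium from puberty onwards. Females were mated at 8 to 10 weeks of age, embryos were flushed out, and RNA of 1 uterus went on each array. Because the controls lack iCre, the loss of Sox17 and the presence of iCre at Ltf cannot be told apart. The strain background of the mice was not given in the sources used here, and it bears on MHC genes because their alleles differ between strains.

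MHC class I molecules consist of a heavy chain and the light chain beta-2 microglobulin, and they show peptides made inside the cell to CD8 T cells and to receptors of natural killer (NK) cells. Class II molecules are pairs of an alpha and a beta chain, carried mainly by B cells, dendritic cells and macrophages, and they show peptides from endosomes to CD4 T cells. Interferon-gamma induces both classes, class II through the co-activator Ciita and class I in part through its relative Nlrc5, and uterine epithelium and the leukocytes of the endometrium are both known to carry them.

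The 6 Agilent 1-colour arrays lay on 1 slide scanned once, with the Sox17f/f arrays in one row and the Sox17ed/ed arrays in the other, so slide row and genotype cannot be told apart. Among non-control spots, the share well above background was 60.7% to 65.7% in the control and 56.8% to 59.4% in the mutant uteri, and 0 spots were saturated. Values below are quantile-normalized log2 signals, and differences are log2 fold changes of Sox17ed/ed over Sox17f/f with limma's standard error (SE) and p. The signal of Sox17 itself was 12.21, 12.07 and 12.22 on the Sox17f/f arrays and 9.75, 9.59 and 9.81 on the Sox17ed/ed arrays, a log2 fold change of -2.45. In RNA of a whole organ, fewer cells of a type and less RNA per cell cannot be told apart. Permuting 3 arrays against 3 exactly gives no p below 0.1 for any gene, and p-values measure the spread between these 6 mice.

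Most of the differences were small and above 0. Of the 33 tested, 24 had a log2 fold change above 0, as did 7386 of all 14847 genes. The median over the 33 was 0.23 against 0.00 for all genes. At the thresholds of the study's methods, a 1.4-fold change or more in either direction and an unadjusted p under 0.01, 1 gene was higher, H2-Oa, and 1 was lower, Nlrc5, where 6.04% of all genes tested were higher and 6.47% lower. With a Benjamini-Hochberg adjusted p under 0.05 and no fold threshold, 10 were higher (8.84% of all genes were) and 1 was lower (10.1% of all genes were). All 3 Sox17ed/ed arrays lay above all 3 Sox17f/f arrays for 15 of the 33, against 19.5% of all genes, and below them for 2, Nlrc5 and Tapbp, against 21% of all genes. Below, "rose" and "fell" mean an adjusted p under 0.05. Of all genes tested 8.84% rose and 10.1% fell in that sense, and the counts below are to be read beside those shares.

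**Figure D1:**
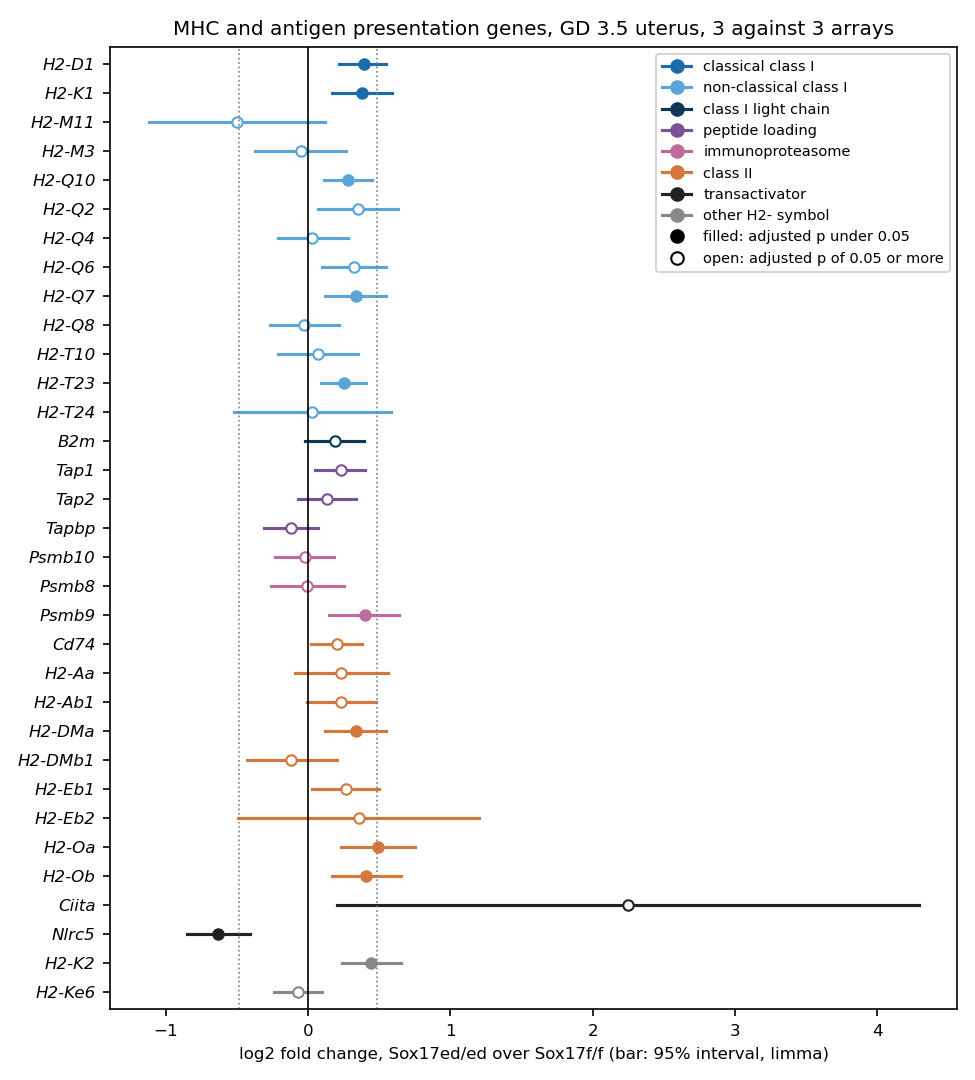
Log2 fold change of Sox17ed/ed over Sox17f/f (x axis) for the 33 genes tested (y axis, coloured by role), with limma's 95% interval; filled points have an adjusted p under 0.05 and dotted lines mark a 1.4-fold change. Points of class I heavy chains and class II chains lie mostly between 0 and 0.49, Nlrc5 lies at -0.63 with its whole interval below 0, and the interval of Ciita runs from 0.20 to 4.29.

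Both classical class I heavy chains, which present peptides to CD8 T cells, rose. The signal of H2-K1 was 14.90, 15.10 and 15.17 on the Sox17f/f arrays and 15.46, 15.43 and 15.42 on the Sox17ed/ed arrays. The mutant arrays were nearly equal and lay above each control, with a log2 fold change of 0.38 (SE 0.09, adjusted p by limma = 0.0291). H2-D1 measured 14.25, 14.33 and 14.27 in Sox17f/f uteri and 14.76, 14.63 and 14.62 in Sox17ed/ed uteri. Here too the groups did not overlap, and the log2 fold change was 0.39 (SE 0.07, adjusted p by limma = 0.0121). The pseudogene H2-K2, a transcribed near copy of the classical genes, gave 13.99, 14.07 and 14.05 against 14.63, 14.42 and 14.39, a rise of 0.44 (SE 0.09, adjusted p by limma = 0.0167). H2-Ke6 carries an H2- symbol for its place in the complex but encodes a steroid dehydrogenase, and it measured 12.22, 12.14 and 12.12 against 12.17, 12.04 and 12.05. Its groups overlapped, with a log2 fold change of -0.07 (95% interval -0.24 to 0.10).

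Of the 11 non-classical class I genes tested, 3 rose, where 8.84% of all genes tested did. H2-T23, which encodes Qa-1, a ligand of inhibitory NK cell receptors, measured 13.59, 13.65 and 13.67 in Sox17f/f and 13.93, 13.91 and 13.81 in Sox17ed/ed uteri, a rise of 0.25 (SE 0.07, adjusted p by limma = 0.0479). H2-Q7, a Qa-2 gene, measured 14.19, 14.28 and 14.30 against 14.74, 14.58 and 14.47, a rise of 0.34 (SE 0.09, adjusted p by limma = 0.0454). H2-Q10, which encodes a secreted class I molecule best known from liver, measured 8.95, 9.01 and 9.11 against 9.33, 9.32 and 9.25, a rise of 0.28 (SE 0.07, adjusted p by limma = 0.0423). In all 3, each mutant array exceeded each control. H2-Q2 and H2-Q6 also did not overlap, with log2 fold changes of 0.35 and 0.32, but their adjusted p-values of 0.0893 and 0.0566 did not pass.

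The remaining non-classical genes varied around 0. H2-Q4, the non-classical gene with the highest mean signal, measured 15.07, 15.12 and 15.12 in Sox17f/f uteri and 15.19, 14.93 and 15.28 in Sox17ed/ed uteri. The mutant arrays lay on both sides of the controls, with a log2 fold change of 0.03 (95% interval -0.21 to 0.28). H2-Q8, H2-T10, H2-T24 and H2-M3, which presents formylated peptides, had log2 fold changes of -0.05 to 0.07. H2-M11 had -0.50 with an interval of -1.12 to 0.12, and its groups overlapped. The 13 class I heavy chain genes tested included H2-T10, a transcribed pseudogene. Over the 13, 10 log2 fold changes were above 0 and the median was 0.25. None of them passed the methods' thresholds on the probe used. By limma 7 had an unadjusted p under 0.05, all higher, where 16.3% of all genes tested were higher and 17.5% lower.

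The start regions of the class I genes are shown because these genes are close copies of each other, and because the letters bound by known regulators of MHC genes can be read in them. They come from RefSeq (GRCm38.p6), run from 250 bases before to 50 bases after the start of the gene, and are written 5′ to 3′ on the strand of the gene. H2-K1 lies at chr17:34000298-34000597 on the minus strand, H2-D1 at chr17:35262844-35263143 on the plus strand, H2-Q7 at chr17:35438905-35439204 on the plus strand, H2-Q10 at chr17:35469839-35470138 on the plus strand and H2-T23 at chr17:36032652-36032951 on the minus strand. Capitals mark, on either strand, GGGATTCCC (an NF-kB site), CCAAT (the box bound by NF-Y), TGACG (part of the site bound by CREB and ATF factors) and TTTC repeated after a gap of any 2 bases (the core of an interferon-stimulated response element).
H2-K1: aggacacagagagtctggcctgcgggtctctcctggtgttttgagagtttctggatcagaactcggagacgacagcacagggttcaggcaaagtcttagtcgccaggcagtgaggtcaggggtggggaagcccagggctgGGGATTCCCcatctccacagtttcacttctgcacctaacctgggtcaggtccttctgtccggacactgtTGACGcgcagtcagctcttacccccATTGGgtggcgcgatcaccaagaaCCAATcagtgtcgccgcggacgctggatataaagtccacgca
H2-D1: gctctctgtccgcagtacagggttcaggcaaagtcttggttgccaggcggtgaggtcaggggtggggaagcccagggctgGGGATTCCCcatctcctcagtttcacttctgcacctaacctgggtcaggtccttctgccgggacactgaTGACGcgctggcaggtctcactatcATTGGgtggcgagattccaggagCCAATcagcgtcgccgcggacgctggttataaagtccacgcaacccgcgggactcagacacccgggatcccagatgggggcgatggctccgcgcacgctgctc
H2-Q7: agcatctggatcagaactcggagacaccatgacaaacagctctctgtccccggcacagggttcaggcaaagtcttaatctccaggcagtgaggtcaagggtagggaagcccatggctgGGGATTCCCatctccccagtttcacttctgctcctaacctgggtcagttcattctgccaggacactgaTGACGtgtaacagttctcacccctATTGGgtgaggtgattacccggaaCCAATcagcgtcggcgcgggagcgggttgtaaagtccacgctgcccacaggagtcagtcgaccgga
H2-Q10: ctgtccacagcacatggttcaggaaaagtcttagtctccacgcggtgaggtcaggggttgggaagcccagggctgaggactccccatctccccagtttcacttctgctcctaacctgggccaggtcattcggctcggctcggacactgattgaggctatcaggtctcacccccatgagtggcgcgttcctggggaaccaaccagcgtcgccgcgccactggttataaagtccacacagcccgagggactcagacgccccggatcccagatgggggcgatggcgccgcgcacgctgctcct
H2-T23: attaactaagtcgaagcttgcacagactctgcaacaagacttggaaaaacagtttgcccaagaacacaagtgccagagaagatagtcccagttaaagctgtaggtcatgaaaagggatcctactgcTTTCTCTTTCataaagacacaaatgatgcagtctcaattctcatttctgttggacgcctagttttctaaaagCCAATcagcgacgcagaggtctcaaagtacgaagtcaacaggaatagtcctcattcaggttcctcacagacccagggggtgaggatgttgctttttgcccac

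The windows of H2-K1 and H2-D1 were identical at 89.5% of the aligned bases, those of H2-K1 and H2-Q7 at 87.4%, and those of H2-K1 and H2-Q10 at 86.1%, whereas H2-T23 shared 63.6% with H2-K1. H2-K1, H2-D1 and H2-Q7 each held GGGATTCCC, followed by TGACG and by CCAAT on both strands. In H2-K1 the NF-kB letters began 110 bases before the start, in H2-D1 170 bases and in H2-Q7 132 bases before it. The first CCAAT began 16, 76 and 40 bases before the same starts. These distances depend on where a start is listed: from the other listed start of H2-K1 the NF-kB letters lay 124 bases away. The H2-Q10 window held none of the 4 motifs in the exact letters searched. H2-K1, H2-D1, H2-Q7 and H2-Q10 all held tttcacttct, in which TTTC is followed after 2 bases by TTCT, not by TTTC. Such near matches to the interferon motif were not searched for or counted. H2-T23 held CCAAT and the interferon motif, which began 124 bases before the start.

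Promoters were listed for 38 of the 60 genes, 41 windows in all. GGGATTCCC was in 5 of the 41, namely H2-D1, H2-Q6, H2-Q7 and both starts of H2-K1, and in 0.353% of all 32851 windows of the same length. CCAAT was in 35 of the 41 (85.4%) and in 37.4% of all windows. TGACG was in 16 (39%) against 20.8%, and the interferon motif was in 3 (B2m, H2-T22 and H2-T23) against 3.44%. AACAAT, a core recognized by SOX factors, was in 2 of the 41, H2-Q4 and H2-T3, and in 10.7% of all windows. The windows of near copies are not independent of each other, and a match is a description of letters, not a bound site. A window without an exact match may still hold a looser form of a site.

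B2m, the light chain that all class I heavy chains need, measured 14.72, 14.64 and 14.78 in Sox17f/f uteri and 14.98, 14.96 and 14.76 in Sox17ed/ed uteri. Its mutant replicate 3 lay within the controls and the groups overlapped. The log2 fold change was 0.19 (95% interval -0.02 to 0.39, limma adjusted p = 0.178), so a shift of the size seen in H2-K1 lies inside its interval. The B2m window at chr2:122147437-122147736 on the plus strand is shown beside those of its partners, with capitals as above.
B2m: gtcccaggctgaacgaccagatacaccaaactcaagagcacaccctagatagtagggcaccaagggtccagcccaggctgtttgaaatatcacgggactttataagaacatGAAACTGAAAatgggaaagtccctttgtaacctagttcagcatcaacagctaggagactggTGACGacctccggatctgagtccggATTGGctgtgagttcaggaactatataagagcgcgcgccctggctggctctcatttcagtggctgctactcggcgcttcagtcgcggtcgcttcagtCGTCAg

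Of the 6 genes that supply and load class I peptides, 1 rose. Psmb9, a catalytic subunit of the immunoproteasome, measured 11.60, 11.67 and 11.85 in Sox17f/f and 12.14, 12.21 and 11.96 in Sox17ed/ed uteri. It rose by 0.40 (SE 0.10, adjusted p by limma = 0.0444) with no overlap. The other 2 inducible subunits did not pass. Psmb8 measured 12.05, 12.10 and 12.12 against 12.19, 12.20 and 11.87, a log2 fold change of -0.01 (95% interval -0.26 to 0.25). Psmb10 measured 13.39, 13.41 and 13.43 against 13.44, 13.49 and 13.23, a log2 fold change of -0.02 (95% interval -0.23 to 0.18). For both, the third mutant array was the lowest of the 6 and the other 2 mutant arrays were the highest, and whether Psmb9 differed from them was not tested.

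The peptide transporter and its adaptor gave values on both sides of 0 that did not pass. Tap1, averaged over 10 spots on each array, measured 8.15, 8.27 and 8.33 in Sox17f/f and 8.52, 8.46 and 8.44 in Sox17ed/ed uteri. The groups did not overlap, yet the log2 fold change of 0.23 did not pass (SE 0.07, adjusted p by limma = 0.0765). Tap2, the partner of Tap1 in the transporter, measured 12.68, 12.53 and 12.81 against 12.78, 12.82 and 12.83, with overlapping groups and a log2 fold change of 0.13 (adjusted p = 0.329). Tapbp, tapasin, which holds class I molecules at the transporter, measured 12.20, 12.22 and 12.40 against 12.14, 12.20 and 12.12. Its mutant arrays lay below the controls, by so little that the nearest pair was equal to 2 decimals, with a log2 fold change of -0.12 (adjusted p = 0.333).

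Tap1 and Psmb9 are neighbours read in opposite directions, and their start regions overlap. The Tap1 window, chr17:34187306-34187605 on the plus strand, is shown because it holds the start of both genes; the Psmb9 window is at chr17:34187281-34187580 on the minus strand. On the Tap1 strand it held 1 CCAAT, 222 bases before the Tap1 start, and 1 TGACG, 86 bases before it. The CCAAT lay 8 bases before the Psmb9 start. The Psmb8 window held none of the 4 motifs.
Tap1: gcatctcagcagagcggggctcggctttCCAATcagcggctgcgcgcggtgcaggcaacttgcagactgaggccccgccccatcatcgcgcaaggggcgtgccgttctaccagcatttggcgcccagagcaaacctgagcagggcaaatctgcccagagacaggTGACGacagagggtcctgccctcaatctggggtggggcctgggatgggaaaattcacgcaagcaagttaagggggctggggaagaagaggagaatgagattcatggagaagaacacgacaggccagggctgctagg

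Of the 9 class II genes tested, 3 rose, where 8.84% of all genes tested did. H2-Oa and H2-Ob encode the alpha and beta chains of H2-O, which restrains the peptide editor H2-M and is best known from B cells. H2-Oa measured 7.84, 7.76 and 7.94 in Sox17f/f uteri and 8.19, 8.52 and 8.30 in Sox17ed/ed uteri. Every mutant array exceeded every control, and the log2 fold change of 0.49 (SE 0.11, adjusted p by limma = 0.0246) corresponded to 1.41-fold, just past the 1.4-fold threshold. H2-Ob measured 6.30, 6.59 and 6.35 against 6.72, 6.91 and 6.84, again without overlap, and rose by 0.41 (SE 0.10, adjusted p by limma = 0.0372). With normexp background correction the log2 fold change of H2-Ob was 0.12 (limma adjusted p = 0.38), and its adjusted p was 0.0691 with an intensity trend, 0.0701 without the filter and 0.087 with an ordinary linear model. H2-DMa, the alpha chain of H2-M, measured 8.74, 8.88 and 8.90 against 9.21, 9.28 and 9.04 and rose by 0.34 (SE 0.09, adjusted p by limma = 0.0496). Its partner H2-DMb1 had a log2 fold change of -0.12 with overlapping groups (95% interval -0.43 to 0.20).

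The chains that make up the presenting class II molecules did not pass. H2-Ab1, the beta chain of I-A, measured 14.57, 14.77 and 14.62 in Sox17f/f and 14.76, 15.05 and 14.85 in Sox17ed/ed uteri, a log2 fold change of 0.23 (adjusted p = 0.166). H2-Eb1, the beta chain of I-E, measured 14.45, 14.60 and 14.36 against 14.72, 14.87 and 14.63, without overlap, and its log2 fold change was 0.27 (adjusted p = 0.113). Cd74, the invariant chain that escorts class II molecules, measured 13.55, 13.69 and 13.52 against 13.78, 13.84 and 13.74, also without overlap, with 0.20 (SE 0.07, adjusted p = 0.11). H2-Aa had 0.23 and H2-Eb2, a dim probe, 0.36, both with overlap. Over the 9 class II genes 8 log2 fold changes were above 0, and the median was 0.27. The second Sox17ed/ed array was the highest of the 6 for 8 of the 9, and the third for the other, H2-Eb2.

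The start regions of H2-Oa at chr17:34092129-34092428 on the plus strand, H2-Ob at chr17:34238655-34238954 on the plus strand and H2-Aa at chr17:34287774-34288073 on the minus strand are shown with the same capitals, since class II promoters share the CCAAT box known as the Y box. H2-Oa and H2-Ob each held 1 CCAAT on the opposite strand, 43 and 57 bases before the start. H2-Aa held it 48 bases before the start, and before it TGACG overlapping its own reverse complement, together the 8 letters of a full CREB site.
H2-Oa: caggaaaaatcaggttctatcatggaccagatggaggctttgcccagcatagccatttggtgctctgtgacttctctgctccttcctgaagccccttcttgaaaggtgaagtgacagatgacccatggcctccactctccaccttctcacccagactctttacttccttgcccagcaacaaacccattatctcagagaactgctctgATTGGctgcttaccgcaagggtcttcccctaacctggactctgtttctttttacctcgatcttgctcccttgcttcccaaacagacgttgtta
H2-Ob: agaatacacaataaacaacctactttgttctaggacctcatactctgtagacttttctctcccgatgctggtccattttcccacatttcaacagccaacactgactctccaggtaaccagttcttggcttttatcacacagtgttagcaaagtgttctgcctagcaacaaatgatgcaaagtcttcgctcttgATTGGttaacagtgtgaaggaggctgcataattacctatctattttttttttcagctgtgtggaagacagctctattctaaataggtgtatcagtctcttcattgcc
H2-Aa: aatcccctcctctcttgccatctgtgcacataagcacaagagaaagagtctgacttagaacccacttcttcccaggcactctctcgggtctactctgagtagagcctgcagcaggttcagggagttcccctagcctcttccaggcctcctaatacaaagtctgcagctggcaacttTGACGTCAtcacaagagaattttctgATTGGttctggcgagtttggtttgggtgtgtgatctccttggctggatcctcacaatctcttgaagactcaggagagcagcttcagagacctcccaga

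The co-activators of the 2 classes gave opposite signs. Nlrc5, the class I co-activator, measured 9.80, 9.91 and 9.84 in Sox17f/f uteri and 9.15, 9.39 and 9.13 in Sox17ed/ed uteri. Each group was tight and all mutant arrays lay below all controls. Nlrc5 fell by 0.63 on the log2 scale, so the controls were 1.55-fold higher (SE 0.09, adjusted p by limma = 0.00593). Its other, dimmer probe measured 5.54, 5.54 and 5.27 against 4.83, 4.93 and 5.31, a log2 fold change of -0.43 with overlapping groups (limma unadjusted p = 0.0279). Nlrc5 was the only one of the 33 genes with an adjusted p under 0.05 in the negative direction. Of the 13 class I heavy chain genes 5 rose, where 8.84% of all genes tested did.

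Ciita, the class II co-activator, was close to background and uneven between mice. Its signal was 4.21, 4.13 and 4.96 on the Sox17f/f arrays and 4.70, 8.05 and 7.29 on the Sox17ed/ed arrays. It was well above background on 1 of the 3 control arrays and on all 3 mutant arrays. Mutant replicates 2 and 3 stood far above the rest, replicate 1 lay among the controls, and the groups overlapped. The log2 fold change of 2.25 had a standard error of 0.84 and did not pass (limma adjusted p = 0.119). Without the first Sox17ed/ed array it was 3.24 (adjusted p = 0.00597), and without the second 1.56 (adjusted p = 0.259). With normexp background correction it was 0.79 (adjusted p = 0.099).

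**Figure D2:**
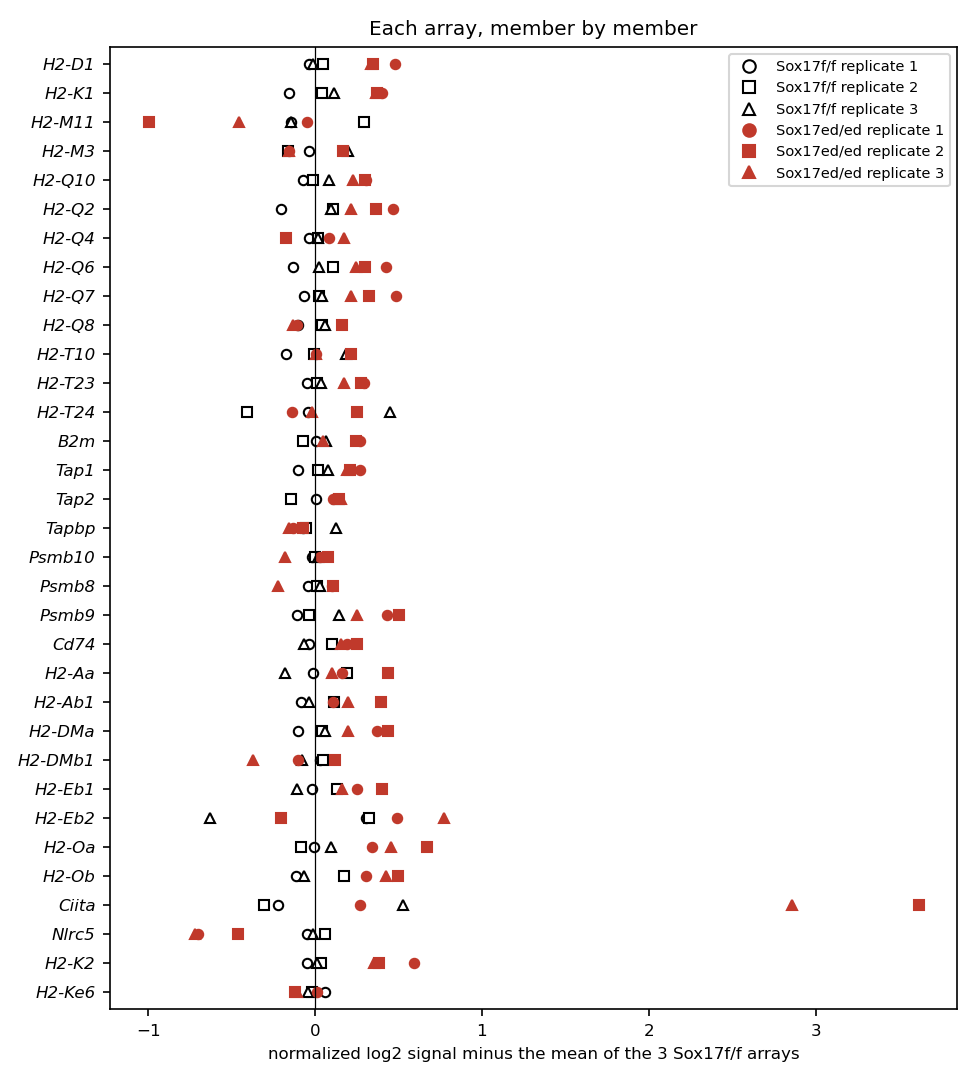
Normalized log2 signal on each array minus the mean of the 3 Sox17f/f arrays (x axis) for the 33 genes tested (y axis); open black symbols are Sox17f/f, filled red symbols Sox17ed/ed, and the shape gives the replicate. The red symbols lie to the right of all black ones for 15 genes and to the left for Nlrc5 and Tapbp, and Sox17ed/ed replicates 2 and 3 stand far to the right for Ciita.

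Several members of the H2-M family, whose H2-M10 branch is known from sensory neurons of the vomeronasal organ, gave signal on some control arrays and on no mutant array. They were not tested, because too few arrays were well above background. How many probes of all genes showed the same pattern was not counted, and fewer spots were well above background on the mutant arrays. The lowest signal well above background was 4.20 and 4.25 on Sox17ed/ed replicates 1 and 2, and at most 3.89 on the Sox17f/f arrays. H2-M10.1 measured 7.74, 7.46 and 1.83 on the Sox17f/f arrays and 2.20, 2.23 and 2.20 on the Sox17ed/ed arrays. It was well above background on 2 of 3 control arrays and not on the third, and the control mean was at least 3.19-fold higher than the bound that background sets on the mutant arrays. That bound takes, on each mutant array, the higher of the probe's own signal and the lowest signal well above background. The brighter of 2 H2-M9 probes measured 4.55 and 7.43 on the first 2 control arrays, its spot on the third was an outlier and left out, and the mutant arrays gave 1.84, 1.86 and 3.68.

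H2-M10.3 was well above background on the first 2 control arrays, at 4.26 and 4.94, and H2-M10.4 on the third, at 4.45. The signals of H2-M10.1, H2-M9 and H2-M10.3 thus fell on the same 2 control mice and that of H2-M10.4 on the third. The other H2-M9 and H2-M10.3 probes were not well above background on any array. H2-DMb2, a second H2-M beta chain gene, was well above background on 1 mutant array only, at 4.33. H2-M1, H2-M10.2, H2-M10.6, H2-M5, H2-Q1 and H2-T3 were not well above background on any array.

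**Figure D3:**
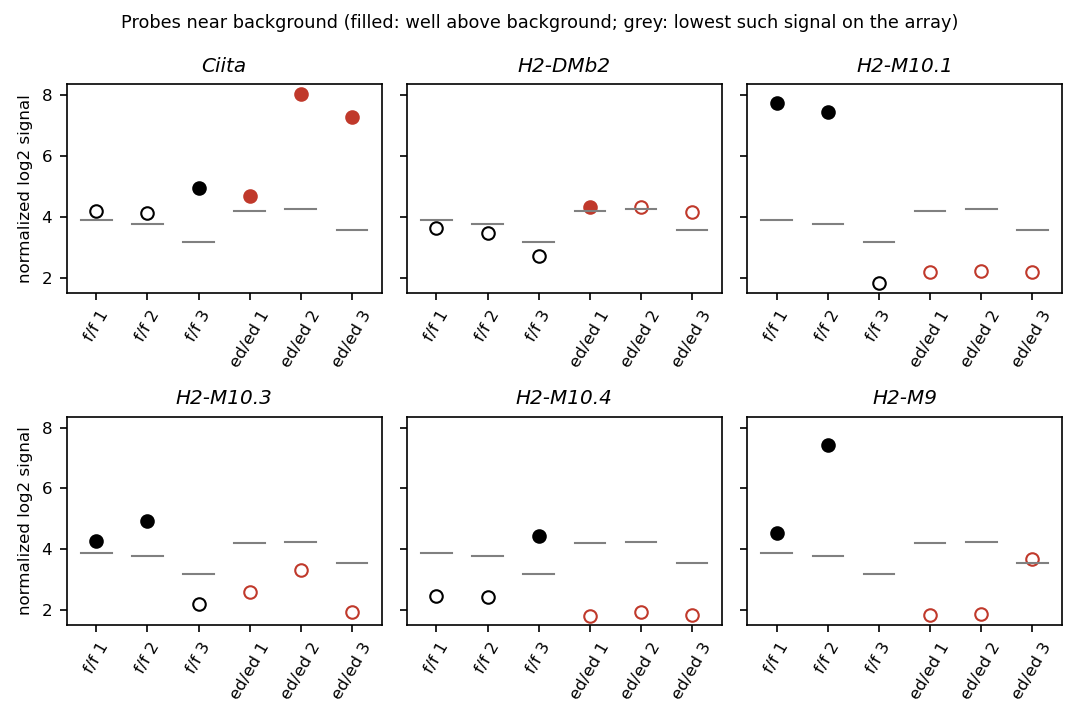
Normalized log2 signal (y axis) on each of the 6 arrays (x axis; f/f is Sox17f/f in black, ed/ed Sox17ed/ed in red) for 6 probes near background; filled points were well above background, and grey lines mark the lowest such signal on that array. Ciita stands high on Sox17ed/ed replicates 2 and 3, at 8.05 and 7.29, and H2-M10.1 on the first 2 Sox17f/f arrays, at 7.74 and 7.46.

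Class I genes of the H2-K, H2-D and H2-Q groups are near copies, so a probe may take up transcripts of a neighbour or miss the allele of another strain, and the probe sequences were not used here to tell these apart. Of the 33 genes, 8 had 2 probes that passed the filter. The second H2-K1 probe gave 0.50, past both thresholds of the methods (limma's moderated test, unadjusted p = 0.00156), where the brighter one gave 0.38 and did not reach 1.4-fold. For H2-K2 (0.46 and 0.44), H2-Q2 (0.37 and 0.35), H2-Ab1 (0.29 and 0.23) and H2-Ob (0.26 and 0.41) the second and first probes had the same sign. For H2-Q10 the dim second probe gave -0.36 with a standard error of 0.31, the opposite sign to the brighter probe, and the mean of both was -0.04. The rise of H2-Q10 therefore holds for the brighter probe alone. The signals of H2-K1, H2-D1, H2-K2, H2-Q7 and the other H2-Q genes cannot be assigned to 1 transcript each, and their rises may not be independent of each other. The counts of genes given here still take each symbol as a separate gene, so they may count a shared signal more than once.

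**Figure D4:**
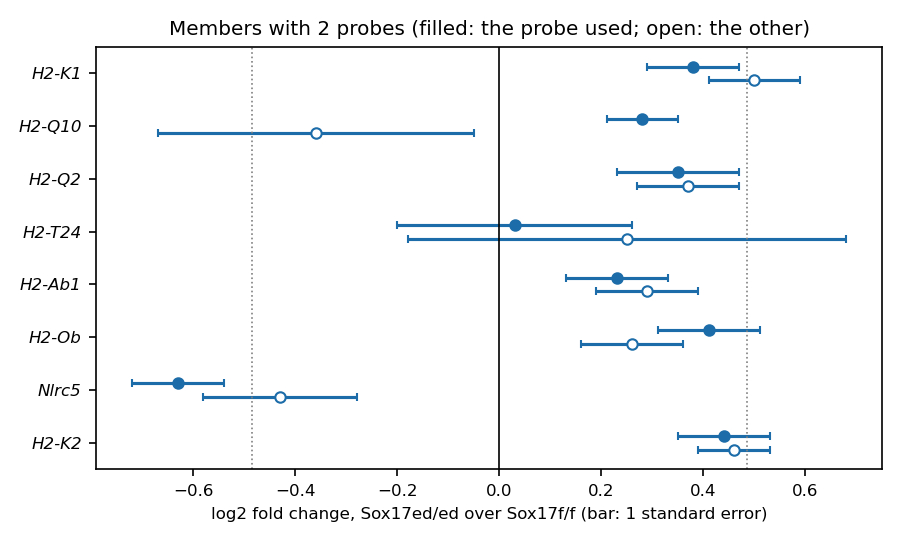
Log2 fold change of Sox17ed/ed over Sox17f/f (x axis) with 1 standard error for the 8 genes with 2 probes that passed the filter (y axis); filled points are the brighter probe, used for the gene, open points the other, and dotted lines mark a 1.4-fold change. The probes share a sign in 7 of the 8 genes and differ in H2-Q10, at 0.28 and -0.36.

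The size of these rises was small, and which of them passed changed when an array was left out. With each array left out in turn, 0 to 6 of the 33 genes rose. Each of these fits had 1 array fewer for every gene, and the share of all genes that rose in them was not counted. The lowest count, 0, came without the first Sox17f/f array. That array held the lowest value of the 6 for H2-K1, H2-D1, H2-Q7 and H2-T23, and its part in the count was not tested. The count was 3 without the second Sox17f/f array, 6 without the third, and 4, 3 and 5 without Sox17ed/ed replicates 1, 2 and 3. H2-D1 and H2-K2 rose in 5 of these 6 fits, H2-Oa in 3, Psmb9 in 2, H2-K1, H2-Q7, H2-Q10, H2-Ob and H2-DMa in 1 each and H2-T23 in 0, while Nlrc5 fell in 6 of 6. The log2 fold changes themselves stayed close: 0.34 to 0.41 for H2-D1, 0.30 to 0.44 for H2-K1 and -0.71 to -0.58 for Nlrc5. At the methods' thresholds 0 of the 33 genes were higher without the first Sox17f/f or the second Sox17ed/ed array, and 2 without the first Sox17ed/ed array. Of all 14847 genes 805, 823 and 806 were higher in these fits, against 897 with all 6 arrays.

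The scaling was also examined, since many of these genes are bright. Among the 1249 genes with a mean log2 signal of at least 13, the median log2 fold change was 0.02, and among the 12 MHC and antigen presentation genes of that brightness it was 0.26. With each array shifted by its 75th percentile in place of quantile normalization, these medians were -0.04 and 0.18, and 7 genes rose, without H2-Q7, H2-T23 and Psmb9.

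**Figure D5:**
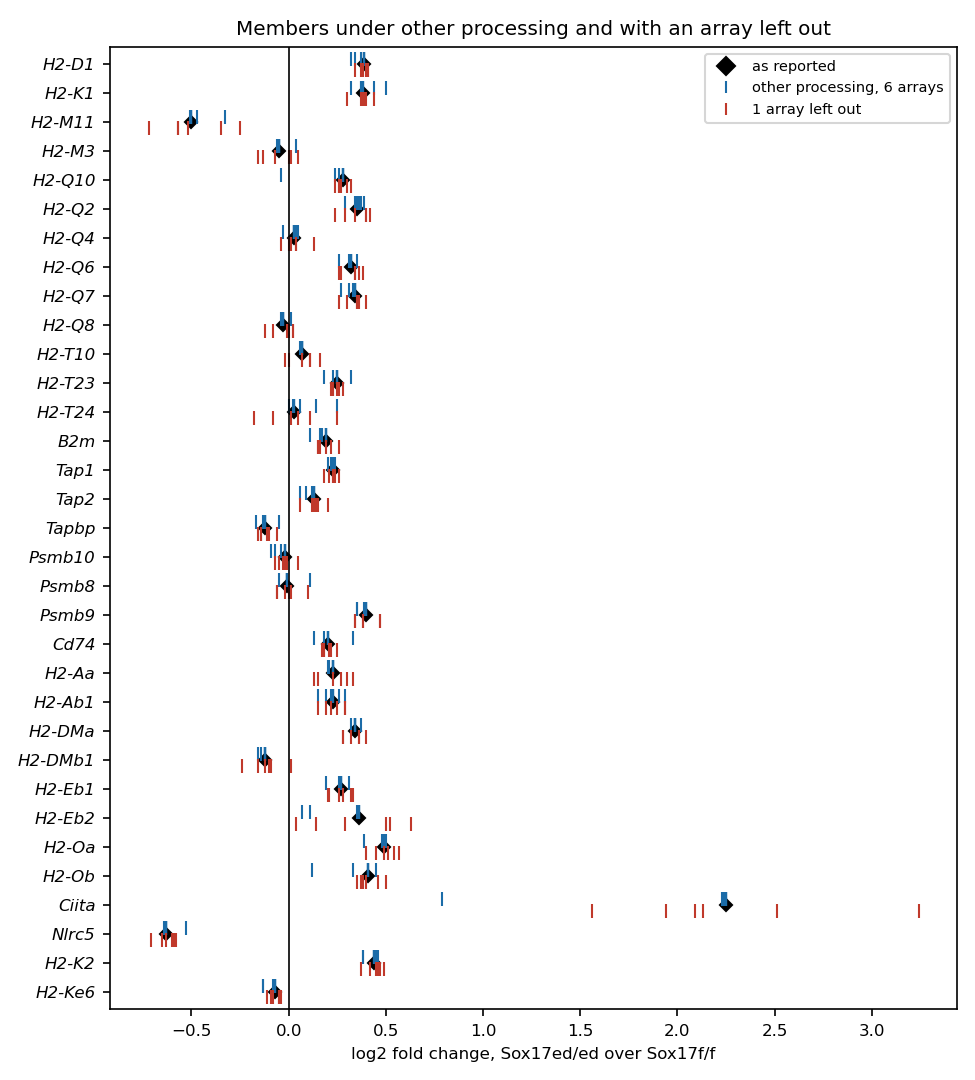
Log2 fold change of Sox17ed/ed over Sox17f/f (x axis) for the 33 genes tested (y axis) as reported (black diamonds), under other processing of all 6 arrays (blue marks) and with 1 array left out (red marks). The marks of Nlrc5 stay between -0.71 and -0.53 and those of H2-D1 between 0.32 and 0.41, whereas Ciita spreads from 0.79 to 3.24.

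Other genes of the pathway were taken from lists of 70 genes, 66 of them tested. At the thresholds 0 were higher and 6 lower, where 6.04% and 6.47% of all genes tested were. At an unadjusted limma p under 0.05 there were 6 higher and 15 lower, against 16.3% and 17.5% of all genes. With adjusted p 1 rose and 10 fell, against 8.84% and 10.1% of all genes. Their median log2 fold change was -0.05. The lower counts at both p levels include Klrk1, which passed the filter through the control arrays alone. Among 12 loading and processing partners of class I, Tapbpl, a relative of tapasin that edits peptides, rose by 0.33 (SE 0.08, adjusted p by limma = 0.0399) and 0 fell. The 3 constitutive catalytic proteasome subunits, which the immunoproteasome subunits replace, had log2 fold changes of -0.14 to 0.09. Of 12 transcription factors of MHC genes 0 passed either test, with 1 higher at an unadjusted limma p under 0.05, and their range was -0.18 to 0.53.

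A pair of endosomal proteases fell. Lgmn, the asparaginyl endopeptidase of antigen processing, measured 14.25, 14.18 and 14.10 in Sox17f/f and 13.26, 13.36 and 13.41 in Sox17ed/ed uteri, a log2 fold change of -0.84 (limma adjusted p = 0.000766). Ctsb, cathepsin B, measured 14.81, 14.93 and 14.76 against 14.03, 14.18 and 14.28, a log2 fold change of -0.67 (limma adjusted p = 0.0044). Both are lysosomal enzymes of many cell types. They were the 2 that fell among the 11 genes of class II processing and co-stimulation tested.

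Of the 7 genes for interferon-gamma and its receptor, 3 fell and 0 rose, where 10.1% and 8.84% of all genes tested did. Ifng itself, the ligand, measured 5.74, 6.15 and 6.22 against 5.82, 6.11 and 5.95, a log2 fold change of -0.08 with overlap (adjusted p = 0.762). Socs3, which brakes cytokine signals, measured 12.05, 12.11 and 11.85 in Sox17f/f uteri and 10.01, 9.73 and 10.30 in Sox17ed/ed uteri. That was the largest fall among the pathway genes tested, -1.99 (limma adjusted p = 0.000491). The receptor chain Ifngr2 fell by 0.31 and the kinase Jak1 by 0.28 (adjusted p = 0.0214 and 0.0499), neither past 1.4-fold.

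Procr, the endothelial protein C receptor with a class I fold, had a log2 fold change of -0.75 (limma adjusted p = 0.0132) and was the 1 gene that passed among 8 tested MHC-like molecules outside the H2 names. Among 13 tested receptors and co-receptors of MHC, 4 fell, where 10.1% of all genes tested did. Klrk1, 1 of the 4, was well above background on all 3 Sox17f/f arrays and on 0 Sox17ed/ed arrays. It passed the filter through the controls alone. Its control mean was at least 1.19-fold higher than the bound that background sets on the mutant arrays. Pirb, an inhibitory receptor for class I on myeloid and B cells, measured 11.11, 11.14 and 11.17 against 10.06, 10.37 and 10.11, a log2 fold change of -0.96 (limma adjusted p = 0.00144). Lilrb4a, a related inhibitory receptor, had -0.80 (limma adjusted p = 0.0286), and its adjusted p was under 0.05 in 1 of the 6 fits with an array left out.

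Markers of the cells that carry these molecules moved with genotype in part. Each marker list is given by its members that rose or fell by adjusted p and by the signal summed over its tested members. Of all genes tested 8.84% rose and 10.1% fell, and 6.04% were higher and 6.47% lower past the methods' thresholds. Of the markers of B cells and plasma cells, 4 of 7 were tested and 3 rose: Jchain (1.27), Mzb1 (1.25) and Cd79b (0.95), which also passed the methods' thresholds. The signal summed over that list was 4598 to 10010 on the Sox17f/f arrays and 14294 to 16799 on the Sox17ed/ed arrays, but 91.0% to 93.6% of it was Jchain, the joining chain of secreted antibodies. The other 3 markers summed to 416 to 665 against 986 to 1098, and the B cell markers Ms4a1 and Pax5 were not well above background on any array. NK cell markers summed to 8308 to 11531 against 12691 to 18659. Of 8 tested, Gzmb (1.37) and Nkg7 (0.49) rose, and these with Prf1 (0.56, limma adjusted p = 0.0502) passed the methods' thresholds. The part of these cells in the rises of the H2- genes, H2-Oa and H2-Ob included, was not tested.

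General leukocyte markers summed to 27045 to 28764 in Sox17f/f and 27348 to 33532 in Sox17ed/ed uteri, and 0 of 7 passed either test (limma; 0 higher and 1 lower at an unadjusted p under 0.05). Macrophage markers moved in both directions. Of 8 tested, Csf1r, the receptor for the macrophage growth factor, rose by 0.41 (limma adjusted p = 0.0162), and Fcgr1 (-1.19), Mrc1 (-0.88) and C1qc (-0.26) fell, the first 2 of them past the thresholds. Their sum was 20649 to 22124 against 21509 to 21971, and without Csf1r 13367 to 14048 against 11226 to 11901. Of 9 dendritic cell markers tested, 1 fell, Batf3 (-0.59), also past the thresholds. Their sum of 32123 to 38917 against 33229 to 38801 was 90.0% to 92.4% Siglech, and the others summed to 3059 to 3199 against 2655 to 3113. The Siglech probe used measured 14.82 to 15.13 over the 6 arrays, and the other Siglech probe only 5.92 to 6.83. T cell markers summed to 3695 to 3873 against 3843 to 4496, and 0 of 7 passed either test (limma; 3 higher and 1 lower at an unadjusted p under 0.05). Lck made up 55.9% to 60.8% of that sum, and the other T cell markers summed to 1575 to 1708 against 1507 to 1886. Neutrophil markers summed to 1202 to 1791 against 870 to 1255, and 0 of 5 tested passed either test (limma; 0 at an unadjusted p under 0.05).

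Among tissue markers, uterine epithelium summed to 55211 to 58164 against 56022 to 68929, with 5 of 11 rising and 2 falling by adjusted p, and as many past the thresholds. Krt18 made up 36.3% to 49.1% of that sum. The other epithelial markers summed to 29394 to 31915 against 33795 to 43923, without overlap. Endothelial markers summed to 19497 to 23320 against 13558 to 15348, and 6 of 8 fell, 2 past the thresholds. Smooth muscle markers summed to 469222 to 516548 against 341433 to 412737, and 2 of 7 fell, 1 past the thresholds. Of 7 stromal markers tested, 1 rose, Hoxa10 (0.34), 1 fell, Dcn (-0.42), and their median log2 fold change was 0.17, with 0 past the thresholds. The stromal sum of 172384 to 176706 against 142491 to 157439 was 54.7% to 66.3% Dcn, and without it 58922 to 64172 against 59538 to 65502. Erythrocyte markers summed to 7940 to 13898 against 9005 to 13259, and 0 of 4 tested passed either test (limma; 0 higher and 1 lower at an unadjusted p under 0.05). Of 5 ovarian markers only Star was tested, with -0.02, and Cyp11a1 measured 9.42 on Sox17ed/ed replicate 3 and 1.83 to 2.22 on the other 5 arrays, none of them well above background. The part of these shifts in the MHC and antigen presentation genes was not tested.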

How the data were processed

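RNA of 6 whole uteri was measured on Agilent 1-colour arrays of 62976 spots, grouped by genotype as the labels give it. The authors deposited scanner intensity (the processed signal of Feature Extraction 11.0.1.1 per the file headers; the submitters' processing notes name 9.1), with background subtracted and no normalization between arrays, and a table of processed intensity that differed from the mean processed signal by a median of at most 0.005% per array. From these, control and outlier spots were left out, log2 signals were quantile normalized and averaged over the spots of each probe, and a probe was kept where 3 or more of the 6 arrays held it well above background. Subtracting the background makes dim values uncertain. Of 55681 probes, 26582 were named through the RefSeq table (GRCm38.p6, 20145 genes), and the brightest probe stood for a gene. Limma 3.58.1 (lmFit, eBayes; R 4.3.3) tested 14847 genes with Benjamini-Hochberg adjustment; the thresholds are those of the study's methods, which name no test. The steps were tested on simulated data. Python 3.11.15, pandas 2.3.3, numpy 2.4.6, matplotlib 3.10.9 and biopython 1.88 made tallies, plots and promoter alignments.

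Members and lists were chosen with earlier results of these data known. Values on every array are given for members that passed a test, for the 10 named members and for the 2 brightest of each role; near-background probes, single markers and some pathway genes were named after their values were seen. The alternatives were a 75th percentile shift, normexp (offset 50, on median spot signals, since mean signals were not used here), no filter, a filter on all 6 arrays, other probe rules, an ordinary linear model, an intensity trend, the deposited table, a replicate block, a fold threshold of 2 and each array left out. Same-numbered arrays of the 2 genotypes, which lay at the same position of their slide rows, were not paired in the main fit. One untested marker gene is not named here. The number of arrays limits the precision.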

Additional observations from a re-analysis of the deposited data

How the results depend on the processing

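The count of members past the methods' thresholds, 1 higher and 1 lower, was the same with a 75th percentile shift, without a filter, with the filter set on all 6 arrays, with the mean of a gene's probes and with an intensity trend. The count higher was 0 with normexp, with the ordinary linear model and with the deposited values, 2 with the probe of smallest p, and 0 to 2 with an array left out. With a fold threshold of 2 it was 0 higher and 0 lower. By limma 16 members higher and 1 lower had an unadjusted p under 0.05, against 16.3% and 17.5% of all genes. The 10 members higher by adjusted p were 2 without a filter, where 20145 genes were tested, 3 with the ordinary linear model, 6 with the deposited values and 0 to 6 with an array left out. They were 7 to 13 under the other alternatives with 6 arrays except the replicate block. The share of all genes higher by adjusted p under each alternative was not counted. With the replicate number as a block, 0 members were higher past the thresholds and 1 by adjusted p, and Nlrc5 was lower in both. Same-numbered arrays also lay at the same position of the 2 slide rows, so this block is one of slide position as well. Deviations of same-numbered arrays correlated at 0.06, -0.11 and -0.00 across genes. Nlrc5 was lower by adjusted p under every alternative run. The cause of the other differences was not tested.

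Values near 0 changed sign. These were Psmb8 (0.11), H2-M3 (0.04) and H2-Q8 (0.01) with normexp and H2-Q4 (-0.03) with the 75th percentile shift. H2-Q10, which rose by 0.28 in the main fit (limma adjusted p = 0.0423), was -0.04 with the mean of its probes. With an array left out in turn, signs changed within -0.24 to 0.01 for H2-DMb1, -0.07 to 0.05 for Psmb10, -0.06 to 0.10 for Psmb8, -0.16 to 0.05 for H2-M3, -0.04 to 0.13 for H2-Q4, -0.12 to 0.02 for H2-Q8, -0.02 to 0.16 for H2-T10 and -0.18 to 0.25 for H2-T24. The share of all genes tested that were higher among those past the thresholds moved from 48.3% to between 46.1% and 50.7%. Signal close to background limits Ciita, H2-Eb2, H2-T24 and the H2-M10 genes.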
